A study of Mus musculus with 6 samples.

Results

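Nuclear receptors are transcription factors that many small lipophilic hormones and metabolites switch on directly, and coregulators are the proteins they recruit to activate or repress transcription. The set described here holds 37 genes, 31 receptors of the thyroid hormone, retinoid, PPAR, liver X, steroid and orphan classes and 6 coregulators. They were chosen by gene symbol from a list, and all 37 were found, each once, among the 37841 entries and 34465 symbols of the expression table. Of the 37, 31 reached 1 FPKM (fragments per kilobase of exon, scaled to the mapped fragments of the library) in at least 1 library and were tested together with all other genes that did, 14413 in all. The other 6, Nr3c2, Pgr, Esrrb, Esrrg, Nr4a3 and Nr5a2, stayed below that level in every library.

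The question was how expression differed between brown (BAT) and white (WAT) fat cells and over their differentiation. Preadipocytes were taken from the interscapular brown and the inguinal white fat of 8 BL6 mice aged 3 weeks, from the stromal vascular fraction, with no genetic change. RNA was sequenced from BAT and WAT cultures before induction (day 0) and again on days 4 and 6, giving 1 library for each of the 6 conditions. The induction medium, used for the first 48 h, held insulin, dexamethasone, 3-isobutyl-1-methylxanthine and rosiglitazone, and the cells then stayed in serum medium without these additions. Dexamethasone is a ligand of the glucocorticoid receptor and rosiglitazone a ligand of Pparg, so ligand exposure and differentiation cannot be told apart in any change between day 0 and the later days. The sources used here do not say whether cells of the mice were pooled. The white columns of the table are headed SUB and were taken as WAT because the white cells came from the subcutaneous depot.

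Several facts of the whole series bear on the values. Fragment numbers were not used here, and a depth estimated from the steps between low values was 17.3 to 20.3 M fragments in BAT libraries and 9.28 to 21.8 M in WAT libraries, lowest in WAT day 0. Adipocyte markers rose on days 4 and 6 (11 of 12 genes passed the test) and preadipocyte markers fell (5 of 12). Of all genes tested, 11.3% rose and 10.6% fell. Ucp1, the uncoupling protein that defines brown adipocytes, was at 0, 9.93 and 3.65 FPKM on days 0, 4 and 6 in BAT, against 1.49, 0.477 and 0.175 FPKM in WAT. Of 12 macrophage markers found, 8 rose, and their summed level was 26.4 to 100 FPKM in BAT and 106 to 383 FPKM in WAT. Of 8 endothelial markers 1 fell, of 6 tested smooth muscle markers 3 fell, and of 9 skeletal muscle markers found 7 stayed below 1 FPKM in every library, the defining regulator Myf5 at 0. The other skeletal muscle markers were Des, which rose by 1.65 (SE 0.42, limma adjusted p = 0.0376), and Tnnt3, at 0.267 to 6.02 FPKM. In a mixed culture, fewer cells of a type and less RNA per cell cannot be told apart. The BAT day 0 library also favoured long transcripts: among 12695 protein-coding genes the median log2 difference of BAT from WAT on day 0 was -0.91 for the tenth with the shortest transcripts and 1.01 for the longest. The 31 tested members are long, with a median longest transcript of 3656 bases against 3008 for these protein-coding genes. Values with that trend removed are therefore given where they change a statement.

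In adipose cells the receptors work in layers. Pparg with a retinoid X receptor partner drives the adipocyte programme, liver X receptors sense oxysterols and act on lipid synthesis, and estrogen-related receptors with PGC-1 coactivators act on genes of mitochondrial oxidation. Thyroid hormone, retinoic acid and glucocorticoids act on the same cells through their own receptors. Corepressors such as Ncor1 hold many of these receptors silent in the absence of ligand.

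Over the 6 libraries the summed level of the 37 genes was 392.7, 470.2 and 373.7 FPKM on days 0, 4 and 6 in BAT, against 282.3, 381.1 and 395.7 FPKM in WAT. Esrra, an orphan receptor of mitochondrial genes, was the most abundant member on day 4 in both cell types, and Nr1h2, the broadly expressed liver X receptor, was the most abundant on day 6 in both. On day 0 the leading member was the corepressor Ncor1 in BAT, at 48.2 FPKM, and the immediate early receptor Nr4a1 in WAT, at 35.0 FPKM. Thra, the main thyroid hormone receptor, Nr1h2 and Ncor1 were at 26.0 FPKM or more in every library.

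**Figure D1:**
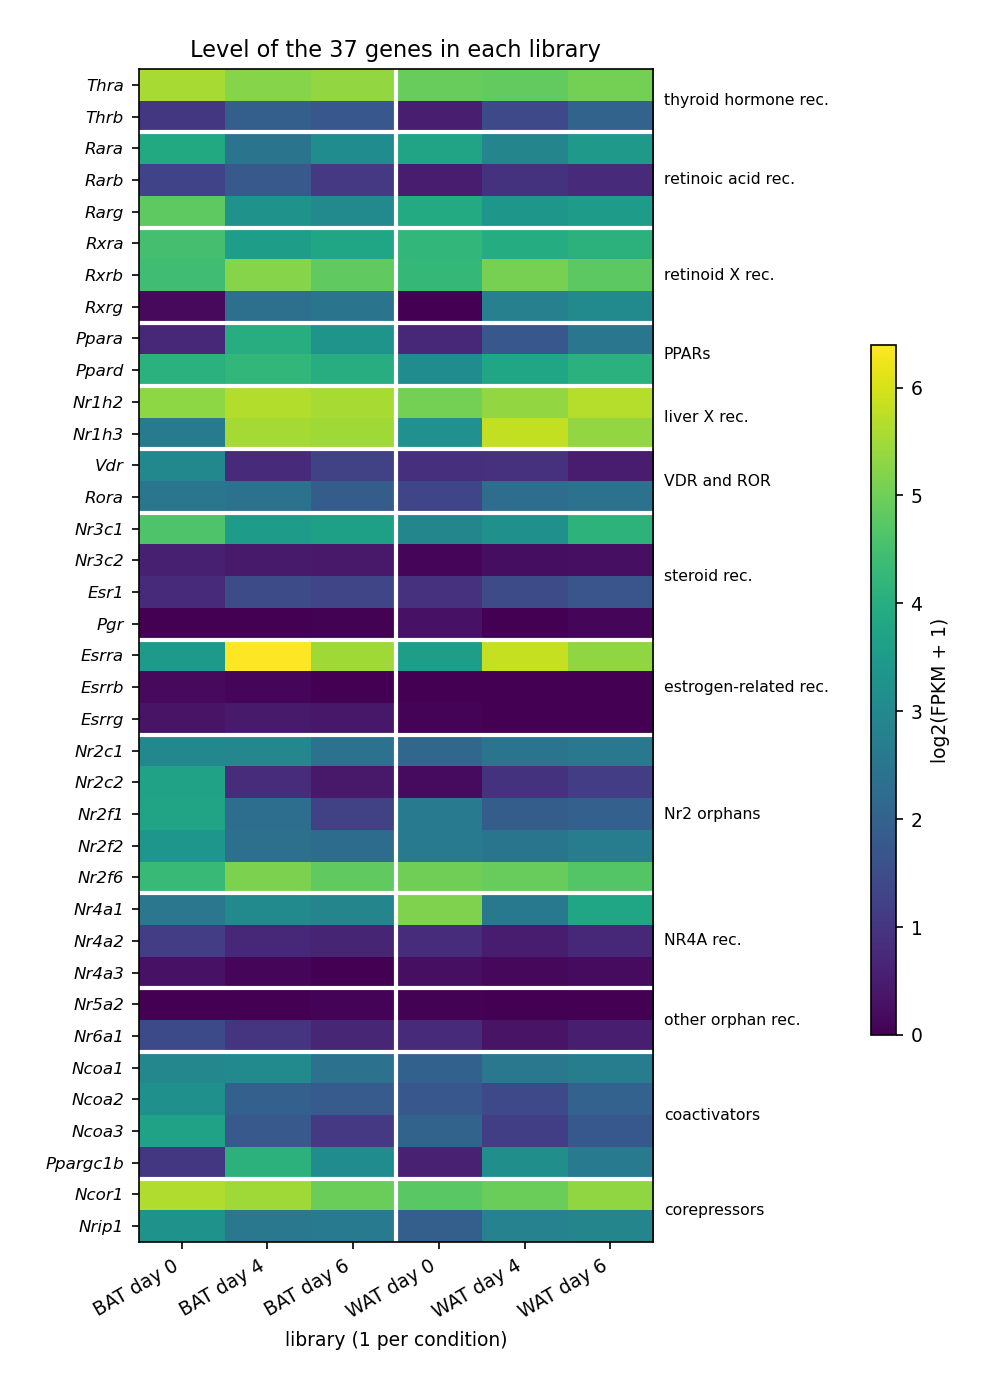
Level of each of the 37 genes, grouped by role, in the 6 libraries (3 BAT days, then 3 WAT days), as log2(FPKM + 1) on the colour scale. Esrra, Nr1h3, Ppara, Rxrg and Ppargc1b are darker on day 0 than on days 4 and 6 in both cell types, and 6 genes stay near 0 in all libraries.

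With differentiation, 5 of the 31 tested members rose and none passed the test for a fall. The risers were the liver X receptor Nr1h3, the retinoid X receptor Rxrg, the coactivator Ppargc1b, the estrogen-related receptor Esrra and the fatty acid receptor Ppara. Among all genes tested, 11.3% rose and 10.6% fell between day 0 and days 4 and 6, so 5 of 31 is near the share of all genes that rose. The test was limma on log2(FPKM + 1), with 1 term for cell type and 1 for day, and Benjamini-Hochberg adjustment at 0.05. With 1 library per condition its error comes from how far the cell types disagree over the days, with 2 residual degrees of freedom, so a response in 1 cell type alone counts as error. The median change of the 31 members was 0.04, against -0.13 for all genes. On log2(FPKM + 1) the same 5 genes were the members at least 2-fold higher on days 4 and 6 in both cell types, a pattern of 7.64% of all genes, and no member was at least 2-fold lower in this way, against 6.4% of all genes. By the FPKM ratio itself, Thrb (2.22 to 7.02) and Esr1 (2.097 to 2.56) were also at least 2-fold higher in each of these 4 pairs.

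**Figure D2:**
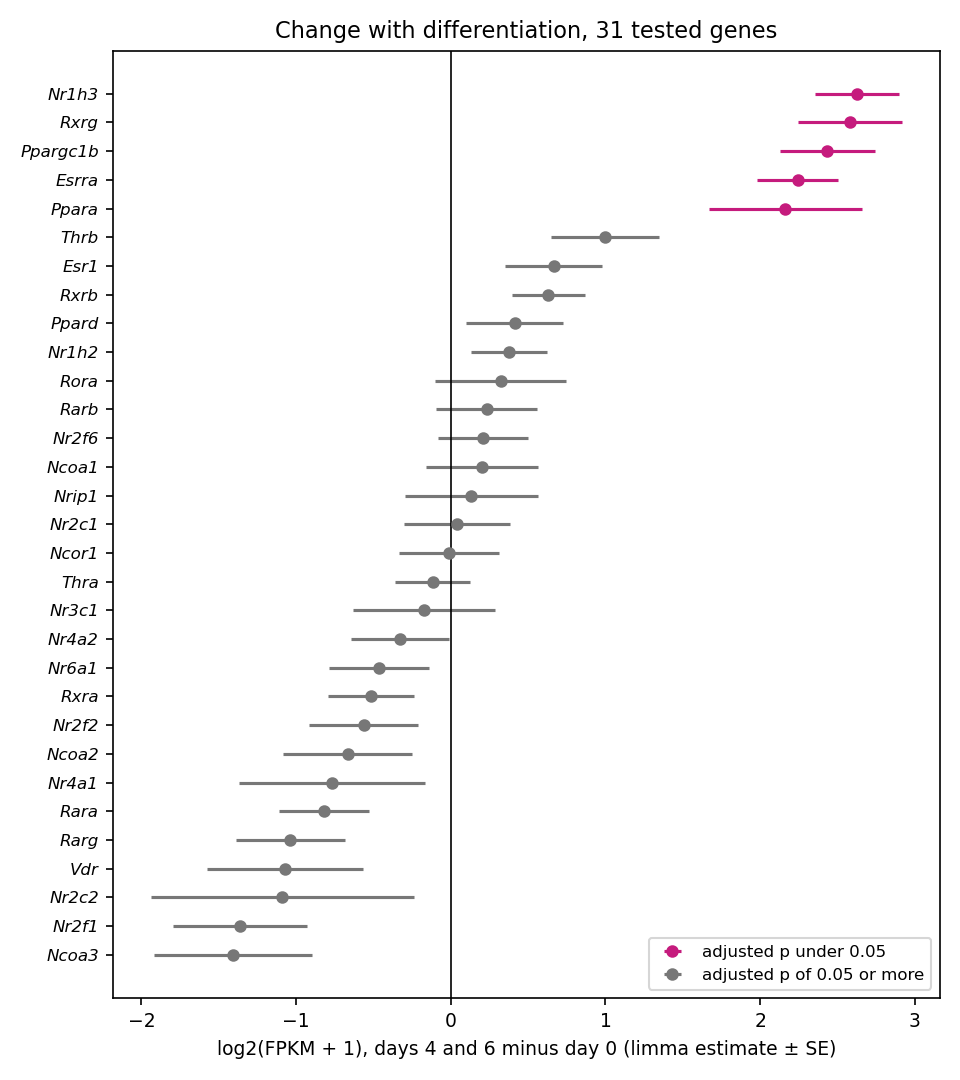
Change in log2(FPKM + 1), mean of days 4 and 6 minus day 0, of the 31 tested members, as the limma estimate over both cell types with its standard error, with the genes of adjusted p under 0.05 in colour. The 5 risers lie between 2.16 and 2.63, apart from the other 26, of which the highest is Thrb at 0.997.

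Nr1h3, also called LXR alpha, is the oxysterol receptor of lipogenic and cholesterol-handling tissues (ENSMUSG00000002108, mm9 chr2:91024218-91042991, minus strand). It was at 5.08, 45.2 and 43.8 FPKM on days 0, 4 and 6 in BAT, against 8.46, 55.5 and 40.3 FPKM in WAT. Every later library was at least 4.76 times the day 0 library of its cell type, and BAT and WAT overlapped on the later days. The log2 change was 2.63 (SE 0.27, limma adjusted p = 0.00258), and the call held when any 1 of the 6 libraries was left out, with adjusted p of 0.00677 to 0.0456. Macrophages also express Nr1h3, and the macrophage markers, which rose on the later days too, summed to 100 FPKM in BAT and 383 FPKM in WAT on day 6. Their part in the Nr1h3 change was not tested. Its partner gene Nr1h2, or LXR beta, was at 38.8, 49.1 and 46.1 FPKM in BAT, against 32.1, 40.0 and 50.0 FPKM in WAT, with a log2 change of 0.38 (SE 0.25) that did not pass the test (adjusted p = 0.315). The share of Nr1h3 in the sum of both was 11.6%, 47.95% and 48.8% in BAT, against 20.9%, 58.1% and 44.6% in WAT. A share within a library does not depend on the scaling between libraries, but it can depend on transcript length where the isotypes differ in length.

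Rxrg encodes the least widespread retinoid X receptor, the obligate partner of many other receptors (ENSMUSG00000015843, mm9 chr1:169528515-169569754, plus strand). It was at 0.121, 4.17 and 4.51 FPKM on days 0, 4 and 6 in BAT, against 0, 5.94 and 7.19 FPKM in WAT. It was near 0 in both day 0 libraries and above 4 FPKM in the 4 later ones, with WAT the higher cell type on both later days. The log2 change was 2.58 (SE 0.34, limma adjusted p = 0.00473), a size that the added 1 FPKM holds down, and it was 5.19 with 0.1 added. The call was lost without BAT day 4 or without WAT day 4, where its adjusted p reached 0.064 at most. Rxra, the general partner receptor in fat, was at 21.7, 10.8 and 12.5 FPKM in BAT, against 17.8, 14.6 and 16.3 FPKM in WAT. Rxrb, the widespread isotype, was at 20.7, 36.4 and 27.3 FPKM in BAT, against 18.1, 32.8 and 26.5 FPKM in WAT, with a log2 change of 0.63 (SE 0.24, adjusted p = 0.110). On day 0 Rxra and Rxrb made up nearly equal shares of the retinoid X receptor sum, 50.9% and 48.8% in BAT and 49.6% and 50.4% in WAT. These shares are as deposited and were not recomputed without the length trend. With that trend removed, the log2 difference of BAT from WAT on day 0 went from 0.27 to -0.44 for Rxra and from 0.19 to 0.02 for Rxrb. On day 4 Rxrb held 70.8% in BAT and 61.5% in WAT, and on day 6 61.7% in BAT and 53.0% in WAT. The share of Rxrg was 0.286%, 8.11% and 10.2% in BAT, against 0%, 11.1% and 14.4% in WAT.

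Esrra, an orphan receptor that acts on genes of oxidative phosphorylation, reached the highest level of any member (ENSMUSG00000024955, mm9 chr19:6985467-6996303, minus strand). It was at 9.93, 83.1 and 43.6 FPKM on days 0, 4 and 6 in BAT, against 11.02, 56.2 and 39.4 FPKM in WAT. Both cell types started at like levels, were highest on day 4, and were 4.39 times the day 0 level in BAT and 3.58 times in WAT on day 6. The log2 change was 2.24 (SE 0.26, limma adjusted p = 0.00353), and without BAT day 4 the call was lost, with an adjusted p of 0.0606. Its relatives Esrrb and Esrrg, which in other oxidative tissues share its targets, were at no more than 0.119 and 0.372 FPKM in any library, so Esrra made up at least 96.2% of the estrogen-related receptor sum.

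Ppargc1b, the coactivator PGC-1 beta, is a known partner of Esrra (ENSMUSG00000033871, on chromosome 18 of mm9, minus strand). It was at 1.07, 16.3 and 7.64 FPKM on days 0, 4 and 6 in BAT, against 0.502, 8.03 and 5.10 FPKM in WAT. The order of the days was that of Esrra in both cell types. As deposited, BAT was the higher cell type on every day, 2.03 times WAT on day 4 and 1.498 times on day 6. On day 0 the log2 difference of BAT from WAT was 0.46 as deposited and 0.02 with the length trend removed. WAT day 0 rested on an estimated 16 fragments. The log2 change over the days was 2.44 (SE 0.31, limma adjusted p = 0.00434), and it was not called without BAT day 4 or without WAT day 4. The other members of the coactivator family were not in the set. Ppargc1a, the cold-inducible coactivator of brown fat, was at 2.15, 4.79 and 1.67 FPKM in BAT, against 1.36, 2.87 and 1.72 FPKM in WAT, highest on day 4 in both, with a log2 change of 0.39 (SE 0.33, adjusted p = 0.427). Pprc1, the serum-responsive relative, was at 23.5, 5.42 and 6.92 FPKM in BAT, against 31.7, 1.27 and 4.59 FPKM in WAT, and fell by 2.49 on the log2 scale (SE 0.43, limma adjusted p = 0.011). The share of Ppargc1b in the sum of these 3 coactivators was 3.99%, 61.5% and 47.1% in BAT, against 1.497%, 66.01% and 44.7% in WAT.

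Ppara, the receptor for fatty acids that turns on their oxidation, differed most between the cell types among the risers (ENSMUSG00000022383, mm9 chr15:85565413-85633249, plus strand). It was at 0.653, 14.9 and 8.995 FPKM on days 0, 4 and 6 in BAT, against 0.652, 2.34 and 4.67 FPKM in WAT. The day 0 levels as deposited were nearly equal, BAT was 6.35 times WAT on day 4 and 1.93 times on day 6, and the later libraries of BAT and WAT did not overlap. With the length trend removed, the log2 difference of BAT from WAT on day 0 was -0.39. The log2 change over the days was 2.16 (SE 0.50, limma adjusted p = 0.0272), the weakest of the 5 calls. With a library left out it was not called, except without WAT day 0, where the estimate of 2.93 is the change in BAT alone. The call was also lost with 5 FPKM added before the logarithm. Ppard, the broadly expressed PPAR, was at 16.1, 17.8 and 14.7 FPKM in BAT, against 7.68, 12.7 and 16.0 FPKM in WAT, with a log2 change of 0.41 (SE 0.31, adjusted p = 0.382). Beside them Pparg, the adipogenic isotype and not a member, was at 19.6, 171 and 222 FPKM in BAT, against 12.0, 110 and 171 FPKM in WAT. In the sum of the 3 PPARs, Ppard held 44.2%, 8.73% and 6.00% in BAT, against 37.8%, 10.2% and 8.35% in WAT, and Ppara 1.80%, 7.29% and 3.67% in BAT, against 3.21%, 1.88% and 2.43% in WAT.

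**Figure D3:**
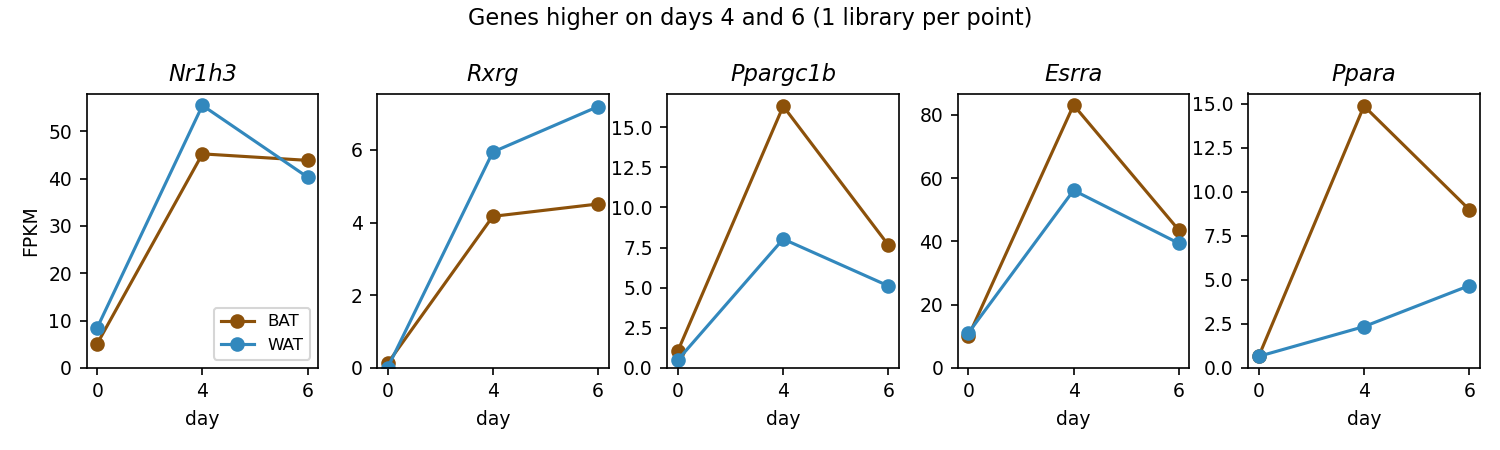
FPKM of Nr1h3, Rxrg, Ppargc1b, Esrra and Ppara on days 0, 4 and 6 in BAT and WAT, with 1 library at each point and no error bar. Ppargc1b, Esrra and Ppara in BAT are highest on day 4, Ppara in WAT is highest on day 6, and Rxrg is highest on day 6 in both cell types.

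**Figure D4:**
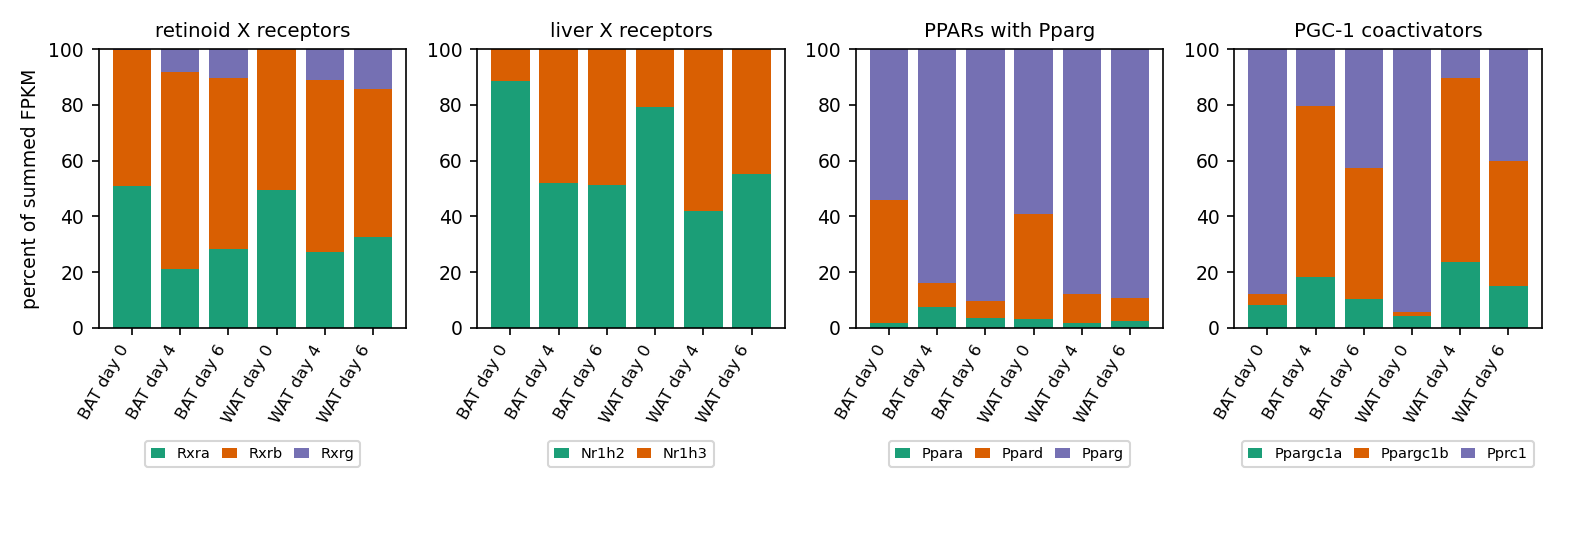
Share of each isotype in the summed FPKM of its family in the 6 libraries, for retinoid X receptors, liver X receptors, the 3 PPARs and the 3 PGC-1 coactivators. From day 0 to the later days the bars shift to Nr1h3, to Rxrb and Rxrg, to Pparg and to Ppargc1b in both cell types.

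The sequences before the start sites of 4 risers show what their proximal promoters hold in the letters that receptors bind. RefSeq windows of the 250 bases upstream of a start were matched by symbol for 32 of the 37 members, in the GRCm38.p6 build, which is not the build of the expression table. The windows were searched on both strands for AGGTCA, the half-site most nuclear receptors read, and for AGTTCA, a variant read by retinoic acid and vitamin D receptors; a match is a description of letters and not a bound site. AGGTCA was found in windows of 6 of the 32 members (18.8%), against 15.8% of 27025 genes, and AGTTCA in 8 (25%), against 13.4%. A gene counted if any of its windows matched. The 32 members had 51 windows and the 27025 genes 32851, so members had more windows per gene and these shares are not alike. By window, AGGTCA was in 14% and AGTTCA in 11.8% of the 32851, and the share of the member windows was not counted. Among the 4 risers with a window, Rxrg alone had a match. Its downstream start of 2 held both, with AGGTCA beginning 88 bases and AGTTCA 164 bases before the start, and its other start held none. The windows of Esrra, Nr1h3 and Ppara held neither, and CpG dinucleotides numbered 22 in Esrra, 27 in Ppara, 7 in Nr1h3 and 7 in Rxrg, against a median of 6 over all windows. The window of Rarb is shown beside them because its promoter is the textbook target of the retinoic acid receptors; it held AGTTCA 42 bases before the start. Capitals mark the half-sites, each sequence is written 5′ to 3′ on the strand of the gene, and Ppargc1b is named only.
Rxrg, chr1:167618015-167618264, plus strand: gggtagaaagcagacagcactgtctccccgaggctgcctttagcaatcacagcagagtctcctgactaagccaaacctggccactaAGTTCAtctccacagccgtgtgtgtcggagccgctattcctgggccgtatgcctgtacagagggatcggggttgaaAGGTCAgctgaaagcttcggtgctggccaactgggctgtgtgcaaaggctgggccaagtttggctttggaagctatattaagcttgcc
Nr1h3, chr2:91195117-91195366, minus strand: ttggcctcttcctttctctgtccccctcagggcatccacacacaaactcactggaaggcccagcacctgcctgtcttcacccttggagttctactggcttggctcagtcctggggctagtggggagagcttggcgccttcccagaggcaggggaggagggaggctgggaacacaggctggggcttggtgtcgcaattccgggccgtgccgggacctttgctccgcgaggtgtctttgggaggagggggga
Esrra, chr19:6921809-6922058, minus strand: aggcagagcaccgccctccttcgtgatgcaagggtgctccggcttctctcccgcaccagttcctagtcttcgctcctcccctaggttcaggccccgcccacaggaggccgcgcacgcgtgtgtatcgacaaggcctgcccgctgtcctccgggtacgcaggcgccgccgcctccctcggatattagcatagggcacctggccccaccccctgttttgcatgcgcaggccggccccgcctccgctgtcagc
Ppara, chr15:85735526-85735775, plus strand: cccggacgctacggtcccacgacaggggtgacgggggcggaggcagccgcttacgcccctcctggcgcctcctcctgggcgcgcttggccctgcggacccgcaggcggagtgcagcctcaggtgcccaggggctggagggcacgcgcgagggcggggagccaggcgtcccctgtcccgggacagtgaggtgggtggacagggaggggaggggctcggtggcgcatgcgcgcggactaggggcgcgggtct
Rarb, chr14:16575477-16575726, minus strand: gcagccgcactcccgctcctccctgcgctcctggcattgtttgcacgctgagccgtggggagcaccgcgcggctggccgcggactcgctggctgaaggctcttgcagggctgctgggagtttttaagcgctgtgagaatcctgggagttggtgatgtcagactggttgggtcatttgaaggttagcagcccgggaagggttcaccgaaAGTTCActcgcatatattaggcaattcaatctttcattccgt

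The longer motifs were not found in any of the 32 members: TCAAGGTCA, the extended half-site of estrogen-related receptors, is in 0.422% of genes, and TGACGTCA, the cyclic AMP response element, in 1.77%. TCAAGGTCA contains AGGTCA, so these searches overlap.

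The thyroid hormone receptors were carried by Thra. Thra was at 46.4, 36.5 and 39.7 FPKM on days 0, 4 and 6 in BAT, against 29.2, 28.2 and 32.1 FPKM in WAT, with a log2 change of -0.12 (SE 0.24, adjusted p = 0.756). Thrb, the isotype best known in liver and pituitary, was at 1.06, 2.84 and 2.34 FPKM in BAT, against 0.443, 1.64 and 3.11 FPKM in WAT. All 4 later libraries of Thrb were above both day 0 libraries, yet its log2 change of 0.997 (SE 0.35) did not pass the test, with an adjusted p of 0.0929. It passed when the libraries were rescaled by median ratios (adjusted p = 0.0472) or the length trend was removed (adjusted p = 0.0158). Thrb made up 2.23%, 7.22% and 5.57% of the pair in BAT, against 1.495%, 5.49% and 8.84% in WAT.

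The retinoic acid receptors were lower in sum on the later days, at 42.4, 15.8 and 16.2 FPKM on days 0, 4 and 6 in BAT and 26.7, 16.9 and 21.3 FPKM in WAT. Rarg, the highest of them by mean FPKM and a receptor of mesenchymal and epithelial cells, was at 27.1, 8.83 and 7.41 FPKM in BAT, against 14.03, 9.48 and 10.6 FPKM in WAT. Day 6 was at 0.273 of day 0 in BAT and 0.754 in WAT, and the log2 change of -1.04 (SE 0.35) missed the test, with an adjusted p of 0.0848. Rara, which binds the same ligand and was above Rarg on day 6 in BAT, was at 13.8, 4.51 and 7.70 FPKM in BAT, against 12.2, 6.50 and 10.1 FPKM in WAT, with a log2 change of -0.82 (SE 0.29, adjusted p = 0.0946). Rarb, itself induced by retinoic acid, was at 1.44, 2.46 and 1.09 FPKM in BAT, against 0.436, 0.908 and 0.694 FPKM in WAT, higher in BAT on each day.

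Vdr, the vitamin D receptor, stood out in BAT day 0. It was at 6.96, 0.706 and 1.36 FPKM in BAT, against 0.807, 0.881 and 0.411 FPKM in WAT, so that 5 of the 6 libraries lay at or below 1.36 FPKM. Rora, an orphan receptor of the clock and of lipid metabolism, was at 4.73, 4.25 and 2.71 FPKM in BAT, against 1.52, 3.90 and 4.31 FPKM in WAT. The lowest library of Rora was WAT day 0, and its log2 change over the days of 0.32 (SE 0.42, adjusted p = 0.613) joined values of opposite sign.

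Nr3c1, the glucocorticoid receptor that dexamethasone binds, was the most abundant steroid receptor. It was at 23.8, 10.4 and 11.5 FPKM on days 0, 4 and 6 in BAT, against 6.69, 8.19 and 16.4 FPKM in WAT. BAT day 0 was the highest library and WAT day 0 the lowest, and the log2 change over the days was -0.17 (SE 0.46, adjusted p = 0.815). Esr1, the estrogen receptor alpha, was at 0.717, 1.82 and 1.54 FPKM in BAT, against 0.867, 1.82 and 2.22 FPKM in WAT, all later libraries being above both day 0 libraries (log2 change 0.66, SE 0.32, adjusted p = 0.184). Nr3c2, the mineralocorticoid receptor, was at 0.3504 to 0.474 FPKM in BAT and 0.0595 to 0.193 FPKM in WAT. Pgr, the progesterone receptor, was at 0 in 3 of the 6 libraries and at most 0.231 FPKM.

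Of the orphan receptors of the Nr2 subfamily, Nr2f6, a repressor also called EAR2, was the most abundant. It was at 19.3, 33.9 and 27.5 FPKM on days 0, 4 and 6 in BAT, against 31.4, 28.9 and 24.9 FPKM in WAT. Nr2f1 and Nr2f2, the COUP-TF receptors of mesenchymal progenitors, had their highest level in BAT day 0. Nr2f1 was at 12.4, 3.95 and 1.36 FPKM in BAT, against 5.36, 2.71 and 2.88 FPKM in WAT, with all later libraries below both day 0 libraries. Its log2 change of -1.36 (SE 0.43) missed the test over all genes, with an adjusted p of 0.0721, and passed when protein-coding genes alone were tested. Nr2f2 was at 9.29, 4.16 and 3.78 FPKM in BAT, against 5.33, 4.63 and 5.42 FPKM in WAT. Nr2c2, the testicular receptor TR4, had the widest spread, at 11.8, 0.769 and 0.351 FPKM in BAT, against 0.132, 0.905 and 1.25 FPKM in WAT. BAT day 0 was its only library above 1.25 FPKM, and WAT day 0, where it rested on an estimated 9 fragments, was its lowest. Nr2c1, the related TR2, showed no such range, at 6.92, 6.74 and 4.30 FPKM in BAT, against 3.35, 4.47 and 4.91 FPKM in WAT.

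Nr4a1, an orphan receptor that many stimuli induce rapidly, was the only abundant member of its family. It was at 4.82, 7.32 and 6.58 FPKM on days 0, 4 and 6 in BAT, against 35.0, 5.03 and 12.7 FPKM in WAT. WAT day 0 stood above the other libraries, and the log2 change over the days was -0.77 (SE 0.60, adjusted p = 0.394). Of 12 other immediate early genes from a list, 11 were lower in BAT day 0 than in WAT day 0 and Egr3 was higher. Their median BAT minus WAT difference was -1.24, against 0.21 for all genes, and the share of all genes that were lower was not counted. The values of these 12 genes were not recomputed without the length trend. For Nr4a1 that difference was -2.63 as deposited and -2.76 with the trend removed. For example, Egr1 was at 16.4 FPKM in BAT day 0 and 72.9 FPKM in WAT day 0, and Egr3 at 1.62 FPKM in BAT day 0 and 0.0881 FPKM in WAT day 0. The part of these other genes in the Nr4a1 value was not tested. Nr4a2 was between 0.399 and 1.23 FPKM, and Nr4a3 at 0.248 FPKM or less. Nr6a1, a germ cell factor, was at 1.71, 0.958 and 0.619 FPKM in BAT, against 0.691, 0.256 and 0.461 FPKM in WAT, and Nr5a2 at 0.0430 FPKM or less.

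Among the coregulators, Ncor1, the corepressor that brings histone deacetylase to unliganded receptors, was far the most abundant. It was at 48.2, 43.4 and 29.97 FPKM on days 0, 4 and 6 in BAT, against 26.0, 29.995 and 39.3 FPKM in WAT, and its log2 change was -0.01 (SE 0.32, adjusted p = 0.987). Nrip1, or RIP140, a repressor of oxidative genes in white fat, was at 8.72, 4.92 and 5.31 FPKM in BAT, against 2.83, 6.16 and 6.47 FPKM in WAT. The p160 coactivators, which bind liganded receptors, summed to 27.0, 12.5 and 8.05 FPKM in BAT, against 8.395, 7.85 and 10.9 FPKM in WAT. Within them the share of Ncoa3 was 44.3%, 19.7% and 13.7% in BAT, against 36.8%, 16.2% and 22.2% in WAT. Ncoa3 was at 12.0, 2.46 and 1.10 FPKM in BAT, against 3.09, 1.27 and 2.42 FPKM in WAT, with a log2 change of -1.41 (SE 0.51) that missed the test (adjusted p = 0.101). With the length trend removed that change was -0.87 (SE 0.32). Ncoa1 was at 6.76, 7.18 and 4.35 FPKM in BAT, against 2.97, 4.89 and 5.44 FPKM in WAT. Ncoa2 was at 8.25, 2.86 and 2.60 FPKM in BAT, against 2.34, 1.68 and 3.03 FPKM in WAT. The day 0 differences of these long genes depended on the length trend. With it removed, the log2 difference of BAT from WAT went from 0.97 to 0.002 for Ncoa1 and from 1.47 to 0.46 for Ncoa2. For Ncoa3 it went from 1.66 to 0.69, for Ncor1 from 0.87 to -0.17 and for Nrip1 from 1.34 to 0.35.

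The count of calls depended on single libraries and on the filter. Without BAT day 4, only Nr1h3 was called higher on the later days (2.05% of all genes), and without WAT day 4 only Nr1h3 and Esrra (2.21%). No member was called lower with all libraries, but 4 were without WAT day 0 (Ncoa3, Nr2c2, Rarg and Vdr, against 18.6% of all genes) and 2 without WAT day 6 (Ncoa3 and Nr2f1, against 7.63%). At an unadjusted p under 0.05, 7 members were higher, the 5 risers with Thrb and Rxrb, and 4 were lower, Ncoa3, Nr2f1, Rarg and Rara; these 11 of 31 compare with 36.6% of all genes. With no filter on low values, no gene of the 34465 symbols was called between day 0 and the later days. With the length trend removed, 8 were called higher, the 5 risers with Thrb, Rora and Esr1, where 14.7% of all genes were. Between days 6 and 4, no member and no gene at all was called higher (0%) or lower (0%). No member of the 31 had an unadjusted p under 0.05, while 561 of all genes did, a share of only 3.89%. Esrra and Ppargc1b were lower on day 6 than on day 4 in both cell types, Esrra at 0.524 of day 4 in BAT and 0.701 in WAT, and Ppargc1b at 0.469 in BAT and 0.636 in WAT.

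Between BAT and WAT, limma called no member higher (0% of all genes) or lower (0%). No member of the 31 had an unadjusted p under 0.05, against 815 of all genes, a share of only 5.65%. The adjusted p of the members was 0.674 or more. The largest estimates over the 3 days were 1.02 for Ppara (SE 0.47), 0.91 for Vdr (SE 0.48) and 0.89 for Nr2c2 (SE 0.80) on the BAT side, and -1.01 for Nr4a1 (SE 0.56) on the WAT side. The median member was 0.26 higher in BAT, against 0.10 for all genes. Of the 31 estimates 24 lay above 0, but the share of all genes above 0 was not counted. By day, 26 members were above 0 on day 0 (19 with the length trend removed), 21 on day 4 and 10 on day 6. The share of all genes above 0 was not counted by day either, and the median of all genes also moved, from 0.21 on day 0 to -0.09 on day 6. Single days have no replicate and no test, so the following are descriptions by a 2-fold rule on log2(FPKM + 1).

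On day 0, 8 members were at least 2-fold higher in BAT than in WAT, where 20.7% of all genes were. They were Nr2c2, Vdr, Nr3c1, Ncoa3, Ncoa2, Nrip1, Rora and Nr2f1, with log2 differences of 1.08 to 3.50. Nr4a1 alone was at least 2-fold lower, by a log2 difference of -2.63, where 13% of all genes were. On day 4 only Ppara was higher by this rule (3.51% of all genes), at 14.9 FPKM in BAT and 2.34 FPKM in WAT, and none was lower (3.08%). On day 6 none was higher (1.8%) or lower (4.09%), and thus none was apart on both later days, against 0.513% of all genes that were higher in BAT on both and 1.09% that were lower. The median difference of the members was 0.68, 0.31 and -0.24 on days 0, 4 and 6, against 0.21, 0.13 and -0.09 for all genes.

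The day 0 values depended on transcript length and scaling. With the length trend removed, the median member was 0.11 higher in BAT on day 0, 2 members (Nr2c2 and Vdr) were at least 2-fold higher and 2 (Nr4a1 and Esr1) at least 2-fold lower, against 11.8% and 11.1% of all genes. When FPKM was rescaled to TPM, which shifted the median of all genes on day 0 to 0.79, 17 members were at least 2-fold higher, against 42.1% of all genes, and the median member was 1.30 higher. With median-ratio scaling, which put the median of all genes at 0.00, 6 were, against 13.5% of all genes.

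**Figure D5:**
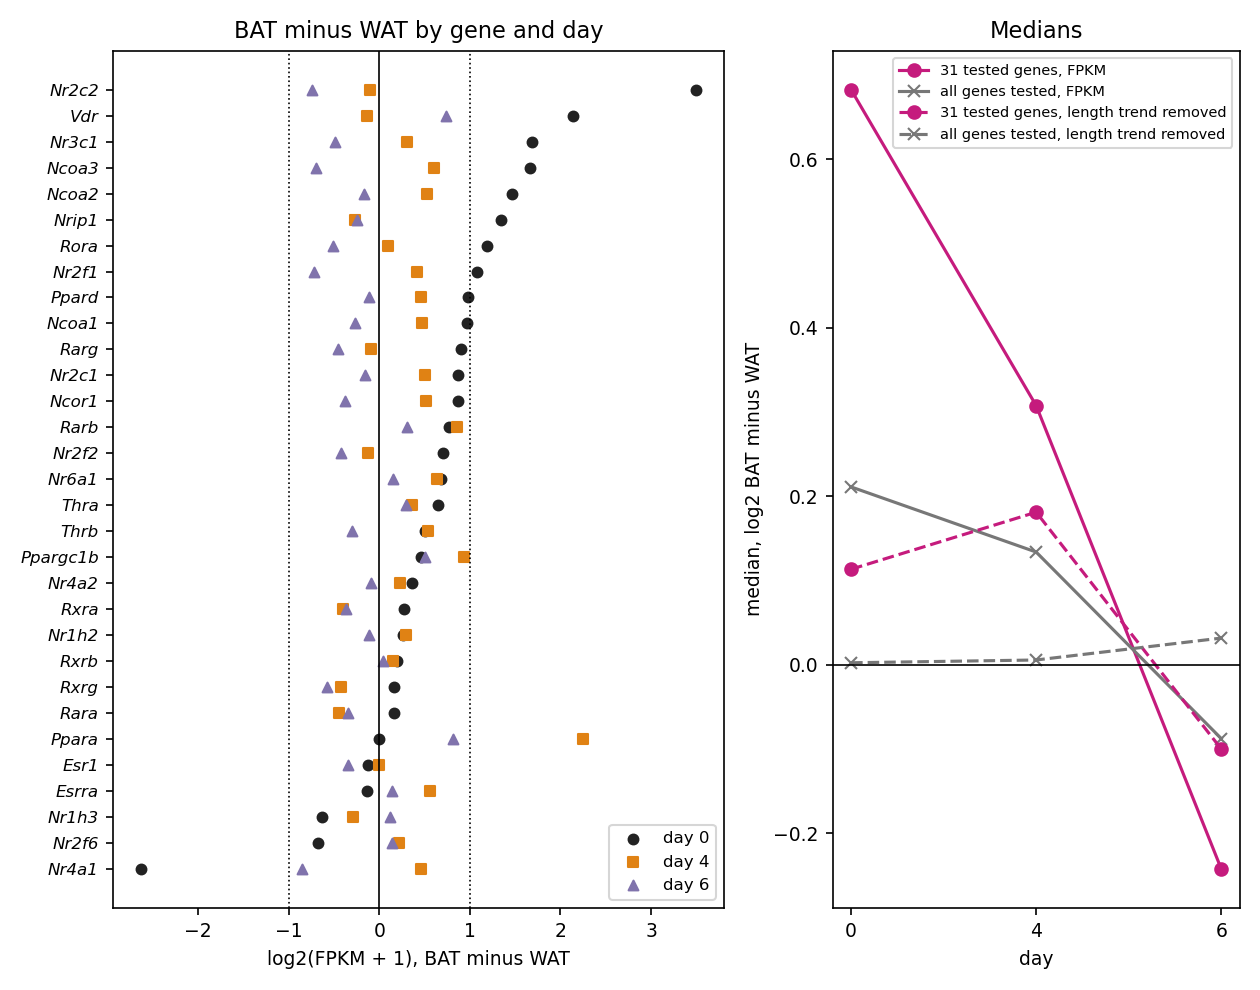
Left, log2(FPKM + 1) in BAT minus WAT for each of the 31 tested members on days 0, 4 and 6, 1 library pair per point, with dotted lines at 2-fold. Right, the medians of the 31 members and of all genes tested by day, as deposited (solid) and with the length trend removed (dashed): the day 0 median of the members is 0.68 as deposited and 0.11 without the trend.

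For 8 of the 31 tested members BAT and WAT moved in opposite directions over the days, a difference that has no test here. The share of all genes that did so was not counted, so the number cannot be read as a trait of the members. Nr3c1, Nrip1, Rora, Ncor1, Nr2c1 and Nr2c2 were lower on both later days than on day 0 in BAT and higher in WAT, and Nr2f6 and Nr4a1 were the reverse. For all but Nr2f6, the 2 day 0 libraries were the highest and the lowest of the 6. Averaged over days 4 and 6, Nr3c1 changed by -1.06 in BAT and 0.72 in WAT, and Nrip1 by -0.67 in BAT and 0.93 in WAT. On days 4 and 6 these 8 members were within 2-fold between BAT and WAT on log2(FPKM + 1). With the length trend removed, the BAT change of Rora, Nr2c1, Nrip1 and Ncor1 had the opposite sign, at 0.74, 0.12, 0.34 and 0.65, and so did that of Nr4a1 after rescaling to TPM, at -0.0522.

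Other genes of these pathways, taken from lists, give the setting of the members. Of 18 other nuclear receptors, 12 were below 1 FPKM in every library, among them the liver receptors Hnf4a and Nr0b2 at 0 throughout. Among the 6 tested, Pparg rose by 3.33 (SE 0.25, limma adjusted p = 0.00121). Of 22 other coregulators tested none rose, where 11.3% of all genes did, and Pprc1, described above, was among those that fell.

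Enzymes that make or remove receptor ligands moved in both directions. Of 14 tested, Cyp27a1, which makes the oxysterol 27-hydroxycholesterol, rose by 3.11 (SE 0.32, limma adjusted p = 0.00258), and Hsd11b1, which regenerates active glucocorticoid, rose by 1.46 (SE 0.26, adjusted p = 0.012). Hsd17b12 rose by 1.01 and Cyp7b1, which clears oxysterols, fell by 2.34 (SE 0.27, adjusted p = 0.00341). Cyp27a1 was at 0.890, 26.4 and 15.9 FPKM in BAT, against 0.828, 13.5 and 8.86 FPKM in WAT, and Cyp7b1 at 26.1, 2.16 and 5.78 FPKM in BAT, against 69.1, 8.52 and 25.9 FPKM in WAT. Dio2, the deiodinase that activates thyroid hormone in brown fat, stayed below 1 FPKM in every library, at most 0.507 FPKM in BAT and 0.0988 FPKM in WAT.

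Known target genes of the receptors, which other factors also act on, moved in differing proportions. Among all genes tested, 11.3% rose and 10.6% fell. The PPAR list also holds Fabp4, Plin1, Cidec, Lpl and Cd36, which are among the adipocyte markers counted above, so these 2 counts overlap. Of 16 PPAR targets 12 rose and none fell, and of 14 estrogen-related receptor targets, 3 of them shared with the PPAR list, 12 rose and none fell. Of 13 glucocorticoid receptor targets 6 rose and none fell, the highest change being Fkbp5, at 9.89, 168 and 44.9 FPKM in BAT, against 8.05, 143 and 36.5 FPKM in WAT. Of 10 liver X receptor targets 4 rose and none fell: the desaturase Scd1, the transporter Abcg1, the lipogenic factor Srebf1 and the acyltransferase Lpcat3. The transporter Abca1 did not pass, at 19.1, 17.7 and 13.6 FPKM in BAT, against 4.37, 13.8 and 17.4 FPKM in WAT. Of 6 thyroid hormone receptor targets tested 2 rose, Thrsp and Me1. Of 7 retinoic acid receptor targets tested, Tgm2 rose, and the retinoid carrier Crabp2 and the repressor Hic1 were among those that fell. The median change was 2.83 for PPAR targets, 2.94 for estrogen-related receptor targets, 1.54 for glucocorticoid, 0.98 for liver X, 0.88 for thyroid hormone and -0.12 for retinoic acid receptor targets, against -0.13 for all genes. No gene of these lists was called between BAT and WAT, but no gene at all was (0%), so this says nothing particular about the lists.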

How the data were processed

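RNA-seq values of 6 libraries were analysed, 1 for each cell type (BAT, WAT) and day (0, 4 and 6). The authors prepared libraries with a directional kit, aligned 100 bp paired-end reads with TopHat 2.0.11 (mm9) and quantified genes with Cufflinks 2.1.1 as FPKM, the deposited values. Of the gene IDs, 97.9% are in GENCODE M1, from which mm9 coordinates and transcript lengths were taken. For repeated symbols the entry of highest mean FPKM stood for the gene; no member had a repeat. Genes that reached 1 FPKM in any library were tested on log2(FPKM + 1) with limma 3.58.1 in R 4.3.3 (trend of variance with mean, 2 residual and 4.26 prior degrees of freedom). FPKM are not counts, and of the low values 78.6% to 84.9% lay within 0.1 of a whole fragment, too few to recover counts; depths and fragment numbers are therefore estimates, and no count test was run.

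The alternatives were other pseudocounts and filters, median-ratio and TPM scaling, summed entries, protein-coding genes alone, removal of a lowess trend with transcript length, no variance trend, and each library left out; where a condition loses its only library, the fit rests on the additive model. Values in every library are given for members called by limma, 2-fold apart in all pairs or highest in their role group, and for others by range or where a description needed them, a choice made after the values were seen. The limma step was tested on simulated data. Results for some genes of the lists are not reported here. Promoter windows and CpG counts are from RefSeq (GRCm38.p6). Members and gene lists were chosen with earlier results of these data known. Python 3.11.15, pandas 2.3.3, statsmodels 0.14.6 and matplotlib 3.10.9 were used.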

Additional observations from a re-analysis of the deposited data

Results flagged for a closer look

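For 8 members the mean change of days 4 and 6 from day 0 on log2(FPKM + 1) had opposite signs in BAT and WAT, with both later days of each cell type on the same side. The difference was not tested, since each change rests on single libraries, and the share of all genes with this pattern was not counted. Nr2c2 changed by -3.05 in BAT and 0.87 in WAT, Nr3c1 by -1.06 in BAT and 0.72 in WAT, and Nrip1 by -0.67 in BAT and 0.93 in WAT. Rora changed by -0.38 in BAT and 1.02 in WAT, Ncor1 by -0.41 in BAT and 0.39 in WAT, and Nr2c1 by -0.31 in BAT and 0.39 in WAT. In the other direction, Nr2f6 changed by 0.63 in BAT and -0.22 in WAT, and Nr4a1 by 0.45 in BAT and -1.99 in WAT.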

How the results depend on the processing

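The number of members called higher on days 4 and 6 was 5; it was 0 with no filter on low values, where no gene at all was called in this comparison, 8 with the transcript length trend removed, and 1 (without BAT day 4) to 5 with a library left out. The number called lower was 0, and it was 1 among protein-coding genes alone. Fits without WAT day 0 take day 0 from BAT alone, so their estimates over the days are BAT changes. Over all genes, 1629 higher and 1524 lower calls became 296 and 143 without BAT day 4, 319 and 172 without WAT day 4, and 2060 and 2678 without WAT day 0. The members at least 2-fold higher on both days in both cell types were 5, but 6 with a pseudocount of 0.1 or the length trend removed, 4 with a mean FPKM of at least 5, and 2 with a pseudocount of 5. Calls of members between BAT and WAT and between days 6 and 4 numbered 0 under every alternative run. The change in BAT over days reversed for Rora (0.74), Nr2c1 (0.12), Nrip1 (0.34) and Ncor1 (0.65) with the length trend removed, and for Nr4a1 (-0.0522) with TPM scaling; beyond the construction of each alternative, the cause was not tested. No paired analysis was possible because each condition has 1 library. Depth limits the lowest members: Nr5a2, Pgr and Esrrb rest on an estimated 8 fragments or fewer in any library.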
